A study of Mus musculus with 10 samples.

Results

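Neurons recognise and hold on to one another, and to glia, through surface proteins built from immunoglobulin-like domains. Most of the 32 genes here encode neuronal members of that superfamily: the IgLON, contactin, L1, NCAM, CADM and DSCAM families, Kirrel3 and Alcam. The rest encode contactin-associated proteins (CNTNAP), relatives of the neurexins that pair with contactins and are grouped with them here. All 32 genes were picked by gene symbol as members of these families and were found among the 55573 genes of the count table. RNA was sequenced from fluorescent cells sorted out of the mouse cortex on postnatal day 3. The 5 Ctrl libraries came from NexCre/+;Cdk7+/+ pups and the 5 Cdk7 KO libraries, written Cdk7_KO here, from NexCre/+;Cdk7lox/lox pups, and every pup also carried R26EYFP/+. Both groups therefore shared the Cre driver and the reporter, and differed in the floxed alleles of Cdk7, a kinase that activates other cyclin-dependent kinases and forms part of the transcription factor TFIIH. Each library was 1 preparation from 1 mouse. NexCre is driven by Neurod6, which glutamatergic neurons of the cortex and hippocampus switch on soon after their birth, so that Cdk7 is deleted after these cells have become neurons.

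Adhesion molecules of these families act in steps. IgLONs and contactins sit in the outer membrane leaflet by a lipid anchor, bind one another or partners on the same or a facing membrane, and signal through transmembrane proteins beside them. L1, CNTNAP and CADM proteins span the membrane and are tied through their tails to ankyrin, spectrin and protein 4.1 in the cell cortex, and in the developing cortex the families guide axon growth, bundling of axons and the first synaptic contacts.

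Total counts lay between 23497621 and 31233466 per library. Levels are given as CPM, the counts scaled to a common library total, with the mean ± SD of 5 libraries. Cdk7 averaged 15.7 ± 4.0 CPM in Ctrl against 5.16 ± 1.3 CPM in Cdk7_KO, or 33.0% of the Ctrl mean, and the groups did not overlap (two-sided exact permutation p = 0.0079, the smallest that 5 against 5 libraries can give). Cdk7 itself did not pass the correction over all genes in edgeR (adjusted p = 0.161) and did in DESeq2 (adjusted p = 2.26e-08). Markers of projection neurons were present throughout, with a summed level of 10 genes between 1807 and 2708 CPM in Ctrl and between 2080 and 2786 CPM in Cdk7_KO. The sort also held RNA of other cells. Where 52.5% of all genes tested had positive log2 fold changes (Cdk7_KO over Ctrl), 7 of 7 astrocyte, 9 of 9 radial glia, 9 of 9 oligodendrocyte lineage, 9 of 9 microglia, 9 of 9 endothelial and pericyte and 12 of 12 interneuron markers tested had negative ones. At an unadjusted edgeR p under 0.05, these lists had 6, 9, 7, 4, 9 and 1 lower markers in that order. Of all genes, 10.5% were lower at that threshold. At an adjusted p under 0.05, edgeR called 0 of these markers and 0 of all genes tested. Among these lists, DESeq2 called 5 radial glia markers and 1 oligodendrocyte lineage marker lower, and 0 others. It called 3.3% of all genes lower. In further lists, 5 of 5 erythroid, 3 of 3 fibroblast and 5 of 6 Cajal-Retzius markers tested had negative fold changes. Of these, 5, 3 and 1 were lower at an unadjusted edgeR p under 0.05, and DESeq2 called 4, 0 and 0 lower. Cajal-Retzius markers summed to 2299 ± 884 CPM in Ctrl and 1458 ± 696 CPM in Cdk7_KO. The replicate numbers fall into 2 sets by sex. Libraries numbered 1 to 3 carried Ddx3y, a gene of the Y chromosome (45.3 to 54.4 CPM), and those numbered 4 to 6 carried Xist (253 to 781 CPM), so that sex and any other difference between these preparations cannot be told apart.

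Most adhesion genes were measured near their Ctrl levels in Cdk7_KO, and no difference passed the correction over all genes in edgeR. Cdk7 itself did not pass it either, so the lack of a call does not show an unchanged level. Intervals of weakly expressed members were wide, such as -1.51 to 1.39 on the log2 scale for Cntnap3. Of the 32 genes, 21 had a positive log2 fold change, against 52.5% of all 15578 genes tested. Their median was 0.06 on the log2 scale, against 0.01 over all genes, and their single values ran from -0.63 (Ncam2) to 0.39 (Cntnap5c). Among the 17 members at or above 10 CPM per kilobase of exon, the largest log2 fold changes belonged to Negr1 (0.35), a growth regulator of neurites, and Cntn2 (0.31), an axonal glycoprotein. By edgeR's quasi-likelihood test no member, and no gene in the whole table (0 of 15578, 0%), had an adjusted p under 0.05. At an unadjusted edgeR p under 0.05, 5 members were higher (Negr1, Opcml, Cntn2, Cntnap4 and Cadm4), where 4.9% of all genes were, and 1 was lower (Ncam2), where 10.5% of all genes were. The 5 higher members became 3 without Cdk7_KO replicate 4, and 2 when libraries were scaled by their totals alone. DESeq2 called 2 members higher, Negr1 and Cntn2, and 0 lower, where it called 0.258% of all genes higher and 3.3% lower. In bulk RNA, fewer cells of a type and less RNA per cell cannot be told apart.

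**Figure D1:**
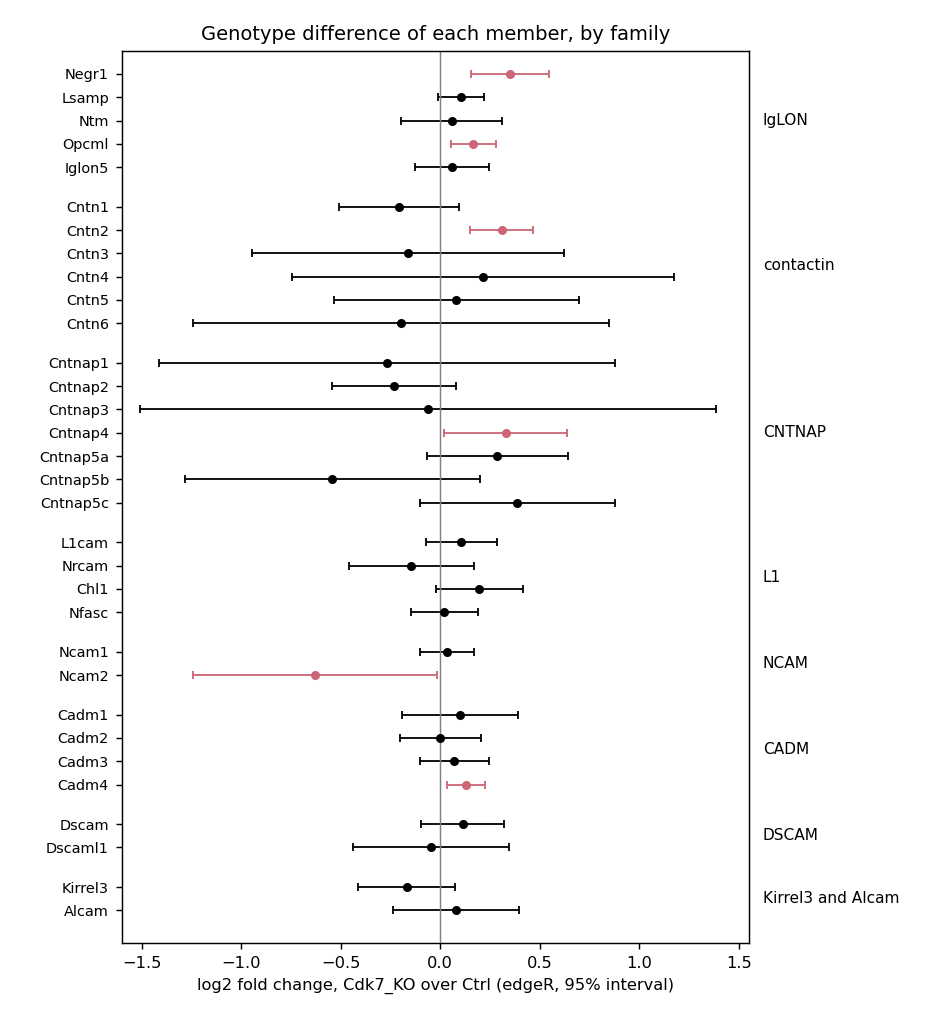
Log2 fold change of each of the 32 adhesion genes, Cdk7_KO over Ctrl, with its 95% interval from edgeR (points and bars), grouped by family; red marks an unadjusted p under 0.05. The 5 higher members in red lie between 0.13 and 0.35 and the lower one, Ncam2, at -0.63, while the intervals of the weakly expressed Cntn4, Cntn6, Cntnap1 and Cntnap3 are the widest.

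The promoters of 4 of these genes are shown because their values carry the comparison: Negr1, Cntn2 and Cadm4, whose CPM in Cdk7_KO lay above every Ctrl library, and Ncam2, the member with the lowest fold change. Each run is the 150 bases before the RefSeq start on the gene's own strand, 5′ to 3′, in GRCm38.p6: chr3:156561644-156561793 (plus strand) for Negr1, chr1:132542941-132543090 (minus strand) for Cntn2, chr7:24481873-24482022 (plus strand) for Cadm4 and chr16:81200547-81200696 (plus strand) for Ncam2. Capitals mark GC boxes, the word GGGCGG or its reverse complement CCGCCC.
Negr1: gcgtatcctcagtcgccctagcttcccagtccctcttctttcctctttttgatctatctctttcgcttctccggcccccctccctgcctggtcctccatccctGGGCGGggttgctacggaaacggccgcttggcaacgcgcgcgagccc
Cntn2: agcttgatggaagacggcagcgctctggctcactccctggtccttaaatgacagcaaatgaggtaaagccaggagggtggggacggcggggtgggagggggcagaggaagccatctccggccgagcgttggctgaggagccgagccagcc
Cadm4: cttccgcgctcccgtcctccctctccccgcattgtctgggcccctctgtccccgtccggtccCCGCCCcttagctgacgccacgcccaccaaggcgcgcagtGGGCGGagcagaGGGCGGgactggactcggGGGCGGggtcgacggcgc
Ncam2: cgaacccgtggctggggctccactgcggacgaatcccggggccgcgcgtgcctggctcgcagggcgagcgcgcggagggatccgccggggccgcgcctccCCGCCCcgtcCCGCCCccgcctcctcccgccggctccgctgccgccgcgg

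The run of Cadm4 holds 4 GC boxes, that of Ncam2 holds 2, that of Negr1 holds 1 and that of Cntn2 holds 0. The Cntn2 run lies within the GENCODE M21 interval of its gene, which reaches to 132543256. Those of Negr1, Cadm4 and Ncam2 end just before theirs begin. RefSeq promoter windows of 300 bases (250 before and 50 after the start) were found for 24 of the 32 members, 33 windows in all. On either strand, 15 of the 33 held a GC box, against 35.7% of the 32851 windows of all genes. The word CCAAT (reverse complement ATTGG) was in 15 of 33, against 37.4% of all windows, and TATAAA (reverse complement TTTATA) in 2 of 33, against 13.6%. Member windows held a median of 13 CpG dinucleotides, against 7 over all windows. Both the higher genes Negr1 and Cadm4 and the lower gene Ncam2 thus have GC boxes and many CpGs at their start, and these words describe the windows only.

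The adhesion genes spanned a 2113-fold range of abundance in the Ctrl libraries. The lowest of them, Cntnap3, had at most 42 counts in any library, which limits the precision of this range. To compare genes, CPM was divided by the length of the gene's merged exons in kilobases (GENCODE M21), giving CPM per kb. Cadm4, an adhesion molecule of the SynCAM family, was highest at 304.7 ± 5.1 CPM per kb, with libraries between 299 and 309. Cntn2, known as TAG-1, an axonal glycoprotein of growing cortical projections, followed at 208.5 ± 11.4, and Ncam1, the main carrier of polysialic acid in the brain, at 97.3 ± 5.4. Each of these 3 was separated from the next gene by ranges that did not overlap. L1cam (58.2 ± 5.0), Chl1 (50.5 ± 8.0), Cadm3 (42.6 ± 3.3), Iglon5 (31.7 ± 4.2) and Nfasc (28.7 ± 2.9) came next, and in this stretch no gene was separated from its neighbour.

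A long plateau followed, from Alcam (24.4 ± 4.2 CPM per kb) through Negr1 (21.5 ± 2.4), Ntm (19.95 ± 3.5), Cadm1 (19.3 ± 3.3), Cadm2 (18.2 ± 2.3), Opcml (17.7 ± 0.8), Cntn1 (17.7 ± 3.4) and Dscam (14.6 ± 2.0) to Lsamp (14.0 ± 1.0). Neighbours on the plateau overlapped in every case. In all, 17 members stood at or above 10 CPM per kb. The lower part of the order held Nrcam (9.72 ± 1.1), Dscaml1 (9.19 ± 2.7), Cntnap2 (8.04 ± 1.7), Kirrel3 (4.80 ± 0.39), Cntnap4 (3.23 ± 0.68), Cntnap5a (1.70 ± 0.35), Cntn5 (1.70 ± 0.46), Ncam2 (1.617 ± 0.57) and Cntn6 (1.02 ± 0.47). Of these, Cntnap2, Kirrel3 and Cntnap4 each had a range that lay wholly above that of the next gene. The 6 members under 1 CPM per kb were Cntnap5c (0.88 ± 0.20), Cntn4 (0.76 ± 0.35), Cntnap5b (0.72 ± 0.35), Cntn3 (0.61 ± 0.13), Cntnap1 (0.16 ± 0.09) and Cntnap3 (0.14 ± 0.08). Across the whole order, 8 of 31 pairs of neighbours had ranges that did not overlap. With the longest transcript in place of merged exons, Negr1 stood at 45.3, Cntn2 at 264.5 and Ncam1 at 128.5 CPM per kb, while Cadm4 was at 304.7 as before, so that the length used moves some places in the order.

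**Figure D2:**
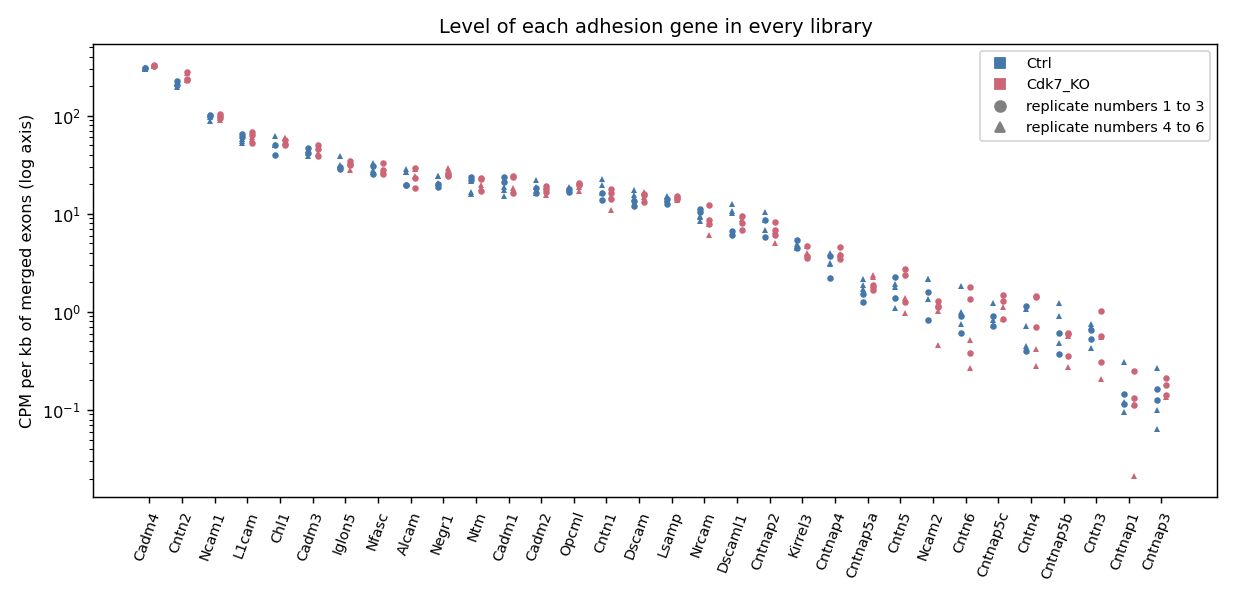
CPM per kb of merged exons (log axis) of each adhesion gene in every library, ordered by the Ctrl mean; blue is Ctrl, red Cdk7_KO, circles replicate numbers 1 to 3 and triangles 4 to 6. Cadm4, Cntn2 and Ncam1 stand above the other genes, and Cntnap1 and Cntnap3 are lowest; the Cdk7_KO replicate 4 library had 0 counts of Cntnap3 and cannot be drawn on a log axis.

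The IgLON family consists of small lipid-anchored proteins that pair with one another. All 5 members had positive fold changes, with a median of 0.10 on the log2 scale, and their summed level was 968 ± 43.7 CPM in Ctrl against 1050 ± 29.7 CPM in Cdk7_KO. Negr1, the neuronal growth regulator (ENSMUSG00000040037, chr3:156561794-157316445 in GRCm38, plus strand), gave the clearest difference. Its Ctrl libraries 1, 3, 4, 5 and 6 were at 197.5, 210.7, 214.1, 252.7 and 252.8 CPM, and Cdk7_KO libraries 1 to 5 at 275.2, 262.5, 257.7, 309.5 and 280.8 CPM. Every Cdk7_KO library lay above every Ctrl library, though the lowest of them, replicate 3, was only just above the highest Ctrl library. The means were 225.5 ± 25.6 and 277.2 ± 20.3 CPM, with a log2 fold change of 0.35 (SE 0.09, 95% interval 0.16 to 0.55). Its unadjusted edgeR p was 0.0020 and its edgeR adjusted p 0.161, while DESeq2 gave an adjusted p of 0.0249.

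Opcml, the opioid-binding cell adhesion molecule (ENSMUSG00000062257, chr9:27790775-28925410, plus strand), had Ctrl values of 239.2, 257.4, 272.2, 260.7 and 258.7 CPM and Cdk7_KO values of 282.4, 292.8, 297.6, 247.5 and 274.1 CPM. Only Cdk7_KO replicate 4 fell inside the Ctrl range, and the other 4 lay above it. With a log2 fold change of 0.17 (SE 0.05, 95% interval 0.05 to 0.28), it had an edgeR adjusted p of 0.187. Scaled by TMM factors, which correct for differences in RNA composition, the Opcml groups did not overlap and those of Negr1 did. Iglon5, the target of antibodies in a sleep and movement disorder, had the highest CPM per kb of merged exons in the family. With the longest transcript as the length, Ntm (50.9), Negr1 (45.3) and Opcml (38.6) stood above Iglon5 (31.7) in Ctrl, and Lsamp (27.4) below. In plain CPM, Iglon5 had the lowest Ctrl mean of the family (83.1). It measured 74.1, 79.4, 102.1, 81.8 and 78.2 CPM in Ctrl and 83.2, 89.4, 84.5, 86.8 and 72.5 CPM in Cdk7_KO, with overlapping groups and a log2 fold change of 0.06 (95% interval -0.13 to 0.24, edgeR adjusted p = 0.797). Lsamp, the limbic system-associated membrane protein, was at 0.10 (interval -0.01 to 0.22), and Ntm, neurotrimin, at 0.06 (interval -0.19 to 0.31).

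The contactins were dominated by 1 gene. Cntn2 made up 90.96 ± 1.603% of the summed contactin CPM in Ctrl and 93.31 ± 1.684% in Cdk7_KO. Cntn2 (ENSMUSG00000053024, chr1:132509427-132543256, minus strand) measured 1896, 2088, 1932, 1801 and 1981 CPM in the Ctrl libraries and 2167, 2560, 2183, 2511 and 2156 CPM in the Cdk7_KO libraries. Each Cdk7_KO library was above all Ctrl libraries, and replicates 2 and 4 were the highest. The means were 1939 ± 106 and 2316 ± 202 CPM, with a log2 fold change of 0.31 (SE 0.07, 95% interval 0.15 to 0.47). The unadjusted edgeR p was 0.0011, the edgeR adjusted p 0.161 and the DESeq2 adjusted p 0.0229. With TMM scaling the groups still did not overlap.

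The other contactins gave no such separation. Cntn1, the partner of Cntnap1 at the junction of axon and myelin, averaged 167.0 ± 31.8 CPM in Ctrl against 139.9 ± 25.1 CPM in Cdk7_KO (log2 fold change -0.21, interval -0.51 to 0.09). Cntn3, Cntn4, Cntn5 and Cntn6, which bind the receptor phosphatase Ptprg, had means between 3.58 and 7.88 CPM in either group. Their fold changes were -0.16, 0.22, 0.08 and -0.20, and their intervals reached from -0.94 to 0.62, from -0.75 to 1.18, from -0.54 to 0.70 and from -1.24 to 0.85. Changes within these bounds were not resolved by these 10 libraries. Cntn2 and Nfasc are neighbours, 21.4 kb apart on chromosome 1, and Nfasc was at 0.02 on the log2 scale (interval -0.15 to 0.19). Opcml and Ntm lie 69.3 kb apart on chromosome 9.

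**Figure D3:**
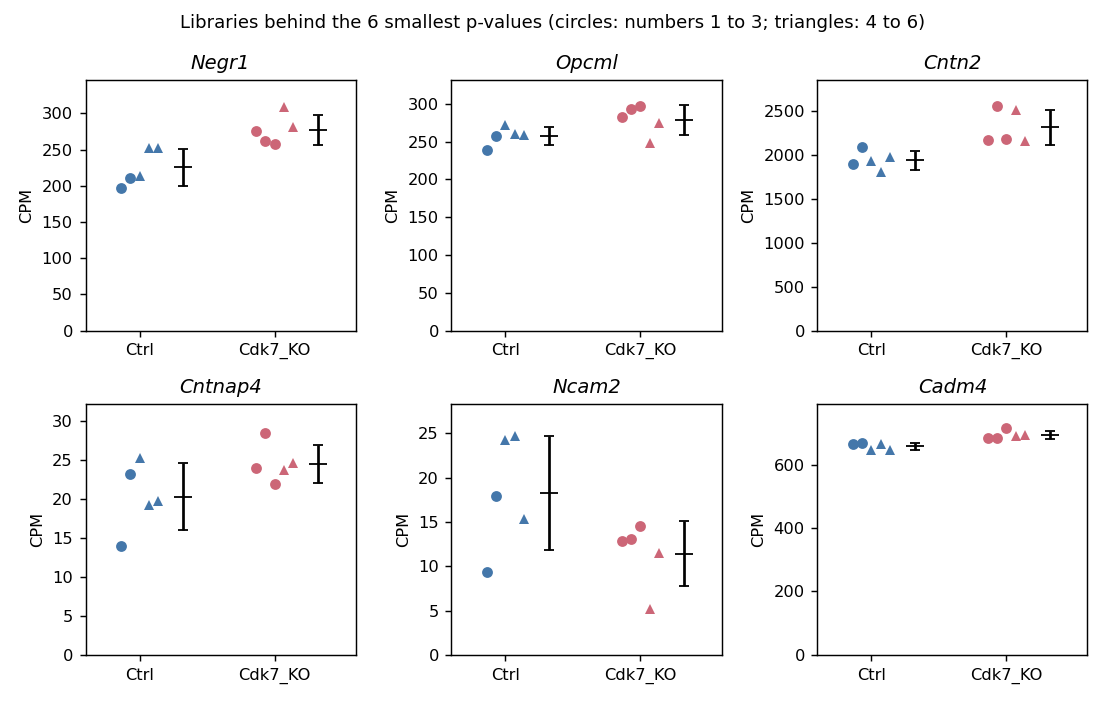
CPM in each library for the 6 members with an unadjusted edgeR p under 0.05, Ctrl in blue and Cdk7_KO in red, circles for replicate numbers 1 to 3 and triangles for 4 to 6; bars give the mean ± SD of 5 libraries and each axis starts at 0. The Cdk7_KO libraries of Negr1, Cntn2 and Cadm4 all lie above the Ctrl libraries, and Ncam2 is lowest in Cdk7_KO replicate 4 (5.17 CPM).

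CNTNAP proteins, also called Caspr proteins, are transmembrane relatives of the neurexins that pair with contactins. Cntnap2, the partner of Cntn2 in clustering potassium channels along the axon, was the most abundant of the 7. Its values were 59.8, 88.0, 105.7, 88.2 and 70.2 CPM in Ctrl and 62.9, 84.9, 69.5, 51.4 and 68.9 CPM in Cdk7_KO. The groups overlapped, the lowest value being Cdk7_KO replicate 4, with a log2 fold change of -0.23 (SE 0.14, 95% interval -0.55 to 0.08, edgeR adjusted p = 0.466). Cntnap4 (ENSMUSG00000031772, chr8:112570043-112882717, plus strand), known from synapses of interneurons, had the opposite sign.

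Cntnap4 was at 14.0, 23.2, 25.2, 19.2 and 19.8 CPM in Ctrl and 24.0, 28.5, 21.8, 23.6 and 24.6 CPM in Cdk7_KO. The Ctrl libraries 3 and 4 lay within the Cdk7_KO range and the other 3 below it. It had a log2 fold change of 0.33 (SE 0.14, 95% interval 0.02 to 0.64) and an edgeR adjusted p of 0.299. Of the summed CNTNAP level, Cntnap2 took 63.0 ± 2.9% in Ctrl and 54.9 ± 3.8% in Cdk7_KO, and Cntnap4 15.5 ± 1.3% and 20.1 ± 1.8%. Reads of Cntnap4 may include those of the antisense gene Gm45904, which had 202 counts over all libraries, because the strand setting of the counting is not given in the sources used here. Cntnap5a (0.29, interval -0.07 to 0.64), Cntnap5b (-0.54, interval -1.28 to 0.20) and Cntnap5c (0.39, interval -0.10 to 0.88) did not pass an unadjusted p of 0.05. Cntnap1 and Cntnap3 had at most 45 counts in any library. The antisense partner of Cntnap1 is Plekhh3, with 2468 counts over all libraries, far more than Cntnap1 had. Reads of Cntnap1 may include some of Plekhh3 where their exons overlap, and how many was not tested. Cntn5, Ncam1, Cadm2, Dscam and Dscaml1 also overlap exons of antisense genes, the most counted of which had between 7 and 179 counts over all libraries. Cntnap3 had 0 counts in Cdk7_KO replicate 4, which allows a level of up to 0.126 CPM (3 counts). The intervals were -1.41 to 0.88 for Cntnap1 and -1.51 to 1.39 for Cntnap3.

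The L1 family links the axon surface to ankyrin and spectrin. Its summed level was 1585 ± 121 CPM in Ctrl against 1640 ± 94.3 CPM in Cdk7_KO. L1cam, which promotes axon growth and bundling, was at 448.0, 478.0, 385.7, 400.3 and 427.0 CPM in Ctrl and 384.9, 465.1, 498.8, 446.6 and 427.9 CPM in Cdk7_KO. The groups overlapped over most of their range, with a log2 fold change of 0.11 (SE 0.08, 95% interval -0.07 to 0.28, edgeR adjusted p = 0.571). Chl1, the close homolog of L1 with a role in neuronal migration, was at 621.3 ± 98.5 and 684.2 ± 52.3 CPM (0.20, interval -0.02 to 0.41). Nrcam was at 129.9 ± 14.6 and 113.9 ± 30.1 CPM (-0.14, interval -0.46 to 0.17). Nrcam and Nfasc assemble at the axon initial segment and nodes, and neither passed an unadjusted p of 0.05.

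Of the NCAM pair, Ncam1 carried 97.9 ± 0.8% of the summed NCAM level in Ctrl and 98.7 ± 0.4% in Cdk7_KO. It was at 877.6, 848.7, 765.2, 843.3 and 881.7 CPM in Ctrl and 810.5, 850.0, 910.4, 821.5 and 777.1 CPM in Cdk7_KO, with overlapping groups. It had a log2 fold change of 0.03 (SE 0.06, 95% interval -0.10 to 0.17, edgeR adjusted p = 0.841), which was -0.02 when libraries were scaled by their totals alone. Ncam2, known from the sorting of olfactory axons (ENSMUSG00000022762, chr16:81200697-81626828, plus strand), measured 9.36, 17.9, 24.3, 24.7 and 15.4 CPM in Ctrl and 12.8, 13.1, 14.6, 5.17 and 11.5 CPM in Cdk7_KO. Every Ctrl library but replicate 1 lay above every Cdk7_KO library. This gave a log2 fold change of -0.63 (SE 0.28, 95% interval -1.24 to -0.02) and an edgeR adjusted p of 0.314. Its unadjusted edgeR p was under 0.05 on all 10 libraries. It was not without any one of Ctrl replicates 3, 4 and 5 or Cdk7_KO replicates 1, 4 and 5, nor with voom.

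CADM proteins, the SynCAMs, bridge the synaptic cleft and bind protein 4.1 and Cask inside the cell. Cadm4 (ENSMUSG00000054793, chr7:24482023-24504539, plus strand) took 48.9 ± 1.4% of the summed CADM level in Ctrl. It had the smallest SD relative to its mean of all 32 members in both groups. Its Ctrl libraries were at 665.6, 668.2, 646.1, 665.8 and 646.7 CPM and its Cdk7_KO libraries at 685.6, 684.9, 715.7, 691.3 and 692.2 CPM. All 5 Cdk7_KO values lay above the 5 Ctrl values, and with TMM scaling too. The difference was small, with means of 658.5 ± 11.1 and 693.9 ± 12.6 CPM and a log2 fold change of 0.13 (SE 0.04, 95% interval 0.03 to 0.22, edgeR adjusted p = 0.200). Cadm1 (0.10, interval -0.19 to 0.39), Cadm2 (0.00, interval -0.20 to 0.20) and Cadm3 (0.07, interval -0.10 to 0.24) did not pass an unadjusted p of 0.05.

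Counted together, 3 members, Negr1, Cntn2 and Cadm4, had CPM values in Cdk7_KO above all Ctrl values, where 0.61% of all genes tested did, and 0 members had values wholly below, where 2.41% of all genes did. With TMM-scaled CPM the number was again 3 higher, where 1.28% of genes were, and 0 lower, where 2.04% were. Cntn2 and Cadm4 were on both lists.

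The remaining members bind mainly their own kind or a few partners across the cell contact. Dscam, which mediates self-recognition of neurites, was at 106.5, 118.0, 152.3, 138.1 and 127.5 CPM in Ctrl and 135.2, 139.7, 116.4, 146.7 and 129.5 CPM in Cdk7_KO. The Cdk7_KO values all lay within the Ctrl range, with a log2 fold change of 0.11 (SE 0.10, 95% interval -0.10 to 0.32, edgeR adjusted p = 0.621). Its paralog Dscaml1 was at 81.8 ± 24.1 and 76.1 ± 10.1 CPM (-0.05, interval -0.44 to 0.35). Alcam, an adhesion molecule of growing axons and of immune cells, was at 140.4, 141.4, 191.5, 191.0 and 202.9 CPM in Ctrl and 210.7, 164.1, 130.9, 172.4 and 205.0 CPM in Cdk7_KO. These groups overlapped as well (0.08, SE 0.15, 95% interval -0.24 to 0.40, edgeR adjusted p = 0.840). Kirrel3, a synaptic adhesion molecule of the hippocampus, was at 30.98 ± 2.5 and 26.6 ± 3.4 CPM (-0.17, interval -0.41 to 0.07).

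Both sets of replicate numbers hold libraries of each genotype, so the genotypes were also compared within them. Among the libraries numbered 1 to 3 (2 Ctrl and 3 Cdk7_KO), 25 of 32 members had positive fold changes, against 53.0% of all genes, with a median of 0.16 against 0.02. Among those numbered 4 to 6 (3 Ctrl and 2 Cdk7_KO), 16 of 32 were positive, against 48.4% of all genes, with a median of 0.02 against -0.02. In the numbers 4 to 6, 6 members were lower at an unadjusted edgeR p under 0.05 (Cntn1, Cntn4, Cntn6, Cntnap2, Nrcam and Ncam2), where 12.3% of all genes were, and 5 were higher (Negr1, Cntn2, Cntnap5a, Chl1 and Cadm4), where 6.92% were. In the numbers 1 to 3, 3 members were higher (Negr1, Opcml and Cntn2), where 2.27% of all genes were, and 0 were lower, where 8.19% were. Negr1 and Cntn2 were past that threshold in both sets. In the numbers 1 to 3 and 4 to 6, the fold changes were 0.39 and 0.39 for Negr1 and 0.22 and 0.39 for Cntn2. Both sets are parts of the same libraries, in which every Cdk7_KO CPM of these genes lay above every Ctrl CPM. The values within the sets are therefore not a separate test of these genes.

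Several members gave different values in the 2 sets. Ncam2 was at 0.00 in the numbers 1 to 3 and at -1.27 in the numbers 4 to 6. Cntn6 was at 0.64 and -1.51, Cntn4 at 0.62 and -0.98 and Cntn1 at 0.11 and -0.50. The difference itself was tested as an interaction of set and genotype, in which edgeR called 0 genes at an adjusted p under 0.05. At an unadjusted p under 0.05 it gave 5 members, Cntn1, Cntn4, Cntn6, Ncam2 and Dscaml1, where 7.34% of all genes passed. Cdk7_KO replicates 4 and 5, the only Cdk7_KO libraries in this set, had summed interneuron markers of 25.2 and 125.7 CPM and Cajal-Retzius markers of 729 and 1339 CPM. The Ctrl libraries 4, 5 and 6 had 397.5, 417.0 and 248.3 CPM of interneuron markers and 3507, 2642 and 1326 CPM of Cajal-Retzius markers. In the numbers 1 to 3, interneuron markers summed to 90.9 and 209.1 CPM in Ctrl and to 285.9, 96.6 and 188.5 CPM in Cdk7_KO, and Cajal-Retzius markers to 1542 and 2476 CPM and to 903, 2388 and 1928 CPM, and the groups overlapped. In the numbers 4 to 6 the groups were apart for interneuron markers and overlapped for Cajal-Retzius markers. Astrocyte markers were apart in both sets, at 686 and 930 CPM against 445, 375 and 526 CPM in the numbers 1 to 3 and at 775, 702 and 436 CPM against 108 and 236 CPM in the numbers 4 to 6. The part of RNA from these cells in the low values of Ncam2, Cntn1, Cntn4 and Cntn6 was not tested.

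**Figure D4:**
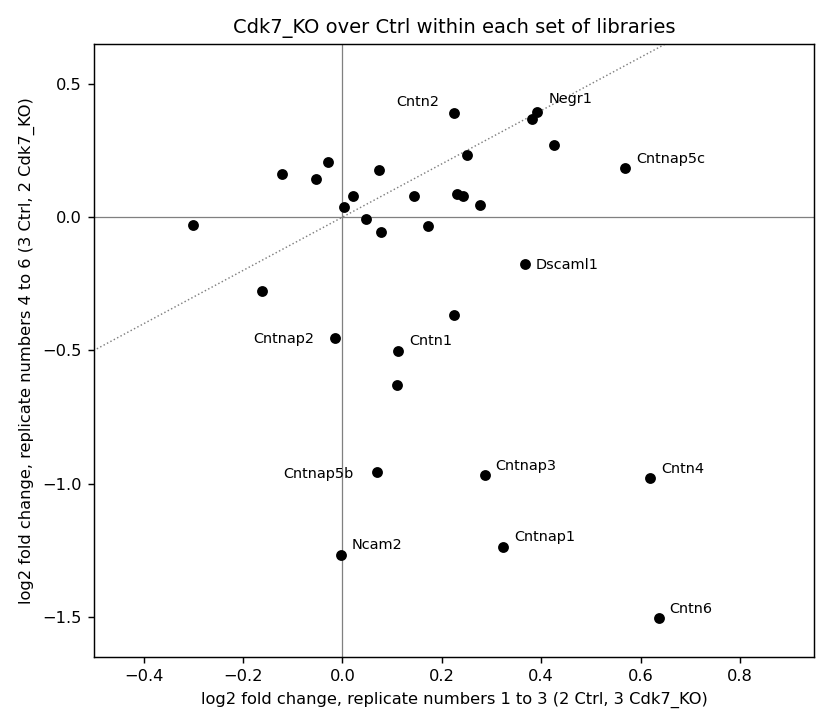
Log2 fold change of each adhesion gene, Cdk7_KO over Ctrl, in libraries numbered 1 to 3 (x axis) and 4 to 6 (y axis); each point is a gene and the dotted line marks equal values. Negr1 and Cntn2 are positive in both sets, and Ncam2, Cntn4, Cntn6, Cntnap1, Cntnap3 and Cntnap5b lie far below the line.

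With the set of numbers as a factor in the edgeR model, the spread between the sets no longer counted as error. Negr1 was then called higher (0.40, edgeR adjusted p = 0.0118) and so was Cntn2 (0.31, edgeR adjusted p = 0.0417), where 0.295% of all genes were called higher and 4.4% lower, and 0 members were called lower. Between the sets, whatever the genotype, 0 members had an edgeR adjusted p under 0.05, where 0.353% of all genes did. At an unadjusted p, 6 members were higher in the numbers 4 to 6 (Negr1, Cntnap5a, Chl1, Dscam, Dscaml1 and Alcam), where 8.51% of all genes were, and 3 were lower (Ntm, Nrcam and Cadm1), where 9.15% were. Dscaml1 differed most among these 9, by 0.50 on the log2 scale.

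Markers of other cell types had mostly negative fold changes beside the higher values of Negr1, Cntn2 and Cadm4, and their part in those values was not tested. The median log2 fold change was -1.06 over astrocyte markers, -0.97 over radial glia, -0.81 over the oligodendrocyte lineage, -0.77 over microglia and macrophages, -1.63 over endothelial cells and pericytes and -0.86 over interneurons. The summed astrocyte markers lay between 436 and 930 CPM in Ctrl and between 108 and 526 CPM in Cdk7_KO, and those of endothelial cells and pericytes between 185 and 1153 CPM and between 48.2 and 254.5 CPM. Interneuron markers lay between 90.9 and 417 CPM in Ctrl and between 25.2 and 286 CPM in Cdk7_KO. None of the markers tested was at 0 in a library. Projection neuron markers were positive for 9 of 10, against 52.5% of all genes, with a median of 0.24, and 3 of them were higher at an unadjusted edgeR p under 0.05, against 4.9% of all genes. An index of 4 lists of non-neuronal cells was at least 0.239 in each Ctrl library and at most 0.06 in each Cdk7_KO library, so that index and genotype cannot be told apart. With the index as a covariate Negr1 was at 0.17, Cntn2 at 0.14, Opcml at 0.22 and Ncam2 at 0.01. Only Opcml among the members then had an unadjusted edgeR p under 0.05, where 0.854% of all genes were higher and 0.841% lower.

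Many adhesion genes are long because of their introns. The median span of the members, introns included, was 349 kb, against 22.4 kb over all genes tested, and Cntnap2 spans 2245 kb and Lsamp 2197 kb. Of the 13 members over 500 kb, 10 had positive fold changes with a median of 0.10, against a median of 0.01 and 53.5% positive among the 215 genes of that length in the whole table. The 11 members between 200 and 500 kb had a median of -0.05 with 5 positive, against -0.01 and 49.0% positive among all 718 genes of that length. The 2 members between 50 and 200 kb (Cntnap3 and Nfasc) had a median of -0.02 with 1 positive, against -0.01 and 48.9% positive among 3455 genes. The 6 members under 50 kb (Iglon5, Cntn2, Cntnap1, L1cam, Cadm3 and Cadm4) had a median of 0.09 with 5 positive, against 0.02 and 53.8% positive among all 11185 such genes. The higher members thus included both a gene of 755 kb (Negr1) and a gene of 22.5 kb (Cadm4).

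Genes whose products work with the adhesion molecules were read from the same fit, in 4 lists, where 4.9% of all genes were higher and 10.5% lower at an unadjusted edgeR p under 0.05. Of 13 cytoskeletal linkers, such as the ankyrin genes Ank2 and Ank3, 0 were higher and 1 was lower at that threshold, no larger a share than over all genes, with a median of 0.06. The lower one was Epb41l2, a protein 4.1 gene, with 59.4 ± 13.9 CPM in Ctrl against 36.4 ± 10.2 CPM in Cdk7_KO (-0.66, edgeR adjusted p = 0.176, DESeq2 adjusted p = 0.0252). Ank3, the ankyrin of the axon initial segment, was at 512.1 ± 50.1 and 536.2 ± 8.7 CPM.

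Of 18 ligands and co-receptors, 1 was higher (Aplp1) and 6 were lower, with a median of -0.07, where 4.9% of all genes were higher and 10.5% lower. Ptprg, the phosphatase that binds Cntn3 to Cntn6, averaged 113.8 ± 14.4 CPM in Ctrl against 81.6 ± 6.1 CPM in Cdk7_KO (-0.43, edgeR adjusted p = 0.161, DESeq2 adjusted p = 0.0065). In this list, 2 genes, Ptprg and Ncan, had Cdk7_KO values wholly below the Ctrl values, where 2.41% of all genes did. Ptprz1, a receptor of Cntn1 made largely by glial precursors, was at 918.6 ± 146.9 and 577.6 ± 132.8 CPM (-0.62, edgeR adjusted p = 0.161, DESeq2 adjusted p = 0.0048). Bcan, which encodes the matrix proteoglycan brevican, was at 220.9 ± 47.7 and 100.4 ± 45.2 CPM (-1.09, edgeR adjusted p = 0.161, DESeq2 adjusted p = 0.0390). Markers of astrocytes (median -1.06) and radial glia (median -0.97) had negative fold changes in the same libraries, and their part in these values was not tested.

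Of 7 genes for polysialylation and shedding, 0 were higher and 0 lower, with a median of 0.03. St8sia2, the main enzyme that adds polysialic acid to Ncam1 in development, was at 343.4 ± 37.1 and 374.7 ± 44.7 CPM (0.18, edgeR adjusted p = 0.456). Of 25 other immunoglobulin superfamily adhesion genes tested, 0 were higher and 6 lower, with a median of -0.16, against the same 4.9% and 10.5% of all genes. The 3 with the smallest p were Mcam, found in vessel walls (-1.35, edgeR adjusted p = 0.193), Cdon, a co-receptor of Hedgehog proteins (-0.37, edgeR adjusted p = 0.213), and Hepacam, a glial adhesion molecule (-0.83, edgeR adjusted p = 0.219). Their values were 20.9 ± 17.3 and 7.97 ± 2.7 CPM for Mcam, 29.9 ± 6.3 and 22.3 ± 2.8 CPM for Cdon, and 31.9 ± 5.3 and 17.4 ± 8.6 CPM for Hepacam. The endothelial and pericyte markers (median -1.63) and the astrocyte markers (median -1.06) had negative fold changes in the same libraries, and their part in the values of Mcam and Hepacam was not tested.

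**Figure D5:**
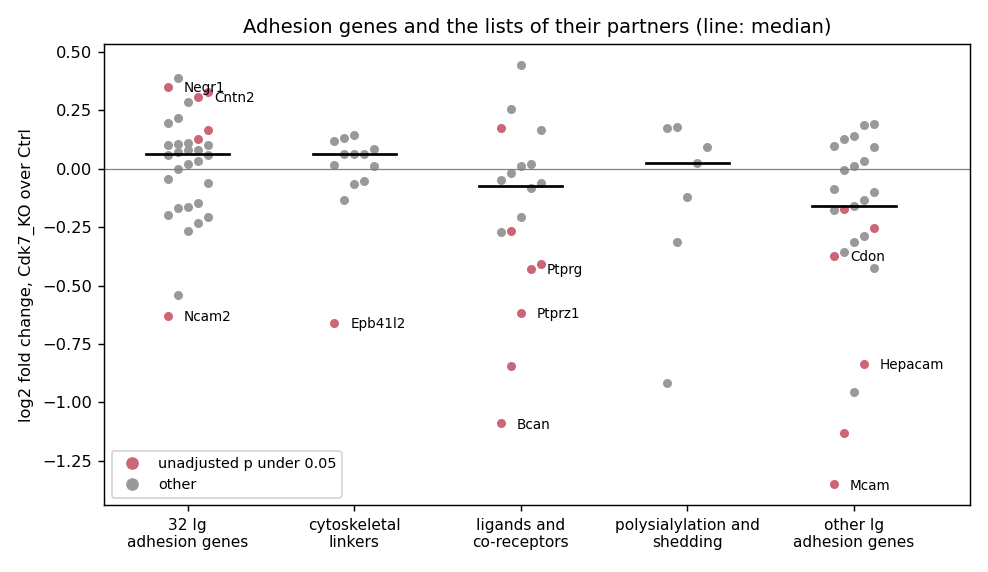
Log2 fold change of the 32 adhesion genes and of 4 lists of partner genes, Cdk7_KO over Ctrl; each point is a gene, red marks an unadjusted edgeR p under 0.05 and the line is the list's median. The adhesion genes have a median of 0.06 and the other immunoglobulin adhesion genes one of -0.16, with Mcam lowest at -1.35.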

How the data were processed

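PolyA RNA of sorted cortical cells was measured in 10 libraries, 5 Ctrl and 5 Cdk7_KO, made with a directional kit per the labels. The authors deposited whole-number counts per gene, with no normalization. The submitters' processing notes name STAR, Salmon and the build GRCm38, but versions, roles and the strand setting were not given in the sources used here. Every count column matched a sample by name (0 left over).

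The main test was edgeR 4.0.16 in R 4.3.3 (filterByExpr with a minimum count of 10, TMM factors, glmQLFit, glmQLFTest, genotype alone in the model), with Benjamini-Hochberg adjustment over 15578 genes at 0.05. All 32 members passed the filter. CPM uses library totals without TMM factors, which shifts the median fold change by -0.05. DESeq2 1.42.0, limma 3.58.1 (voom), other scalings and filters, robust estimation, the replicate block, the set of numbers and the other-cell index as terms, each set alone and leaving out each library were alternatives. The overlap of TMM-scaled CPM, the test and interaction of the set, DESeq2 calls by direction and the overlap without each library were chosen after seeing the data. Simulated data served to try the tests.

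The members and lists were chosen with earlier results of these data known. Per-library values are given for members past an unadjusted edgeR p of 0.05 or with no overlap of CPM, and for the member highest per kb in each family; at most 3 partners per list are named by smallest p, and other named genes were chosen after their values were seen. Kirrel1 was looked up as Kirrel. Gene models are GENCODE M21, where 0 member symbols are shared by several IDs; promoters are RefSeq's, GRCm38.p6.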

Additional observations from a re-analysis of the deposited data

Results flagged for a closer look

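In 64 groups of 5 libraries (32 members in 2 genotypes), 3 held a library far from the other 4, and chance gives about 1 such group in 20. Iglon5 was at 102.1 CPM in Ctrl replicate 4, against 74.1 to 81.8 CPM in the other Ctrl libraries. Cntnap1 was at 1.82 CPM in the same library, against 0.56 to 0.86 CPM in the others. Cadm4 was at 715.7 CPM in Cdk7_KO replicate 3, against 684.9 to 692.2 CPM in the others.

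The genotypes of Dscaml1 separated in opposite directions in the 2 sets of replicate numbers. In the numbers 1 to 3, the Ctrl libraries were at 54.1 and 59.6 CPM and the Cdk7_KO libraries at 85.0, 71.9 and 60.6 CPM. In the numbers 4 to 6, the Ctrl libraries were at 110.7, 94.9 and 89.8 CPM and the Cdk7_KO libraries at 84.2 and 78.9 CPM. The genotype effect differed by -0.55 on the log2 scale between the sets (edgeR interaction, unadjusted p = 0.0172, adjusted p = 0.665), which did not pass the correction over all genes.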

How the results depend on the processing

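Against 0 genes called in all, DESeq2 called 578, the set of replicate numbers as a factor 732, no filter 1, the replicate block 5 (0 members), and leaving out 1 library 0 to 5, with 5 without Cdk7_KO replicate 1. Members called were 2 with DESeq2, 2 with the set as a factor and 0 under the other alternatives. Deviations of same-numbered libraries from their genotype's mean correlated at -0.10 (number 1), 0.31 (3), 0.14 (4) and 0.17 (5). Of these numbers, 3 of 4 correlated best with their own number, and number 1 did not. Same-numbered libraries also share the set and the sex, which were not removed, so pairing and set cannot be told apart here. The numbers were not treated as pairs. Members higher at an unadjusted p (5) were 2 with library totals, 1 with the other-cell index, 3 in the numbers 1 to 3, and 3 to 7 without 1 library, with 3 without Cdk7_KO replicate 4. Members lower (1) were 0 with voom, with the set as a factor, with the index and in the numbers 1 to 3, 6 in the numbers 4 to 6, and 0 to 2 without 1 library: 0 without Ctrl replicate 3, 4 or 5 or Cdk7_KO replicate 1, 4 or 5, and 2 without Ctrl replicate 1 or Cdk7_KO replicate 3. Members wholly lower were 0 to 1 without 1 library (Ncam2 without Ctrl replicate 1) and members wholly higher 3 to 4. The members' median of 0.06 was 0.16 in the numbers 1 to 3 and 0.02 to 0.10 without 1 library. Signs turned for Iglon5 (-0.0568 with the index, -0.0328 in the numbers 4 to 6), L1cam (-0.0294 in the numbers 1 to 3), Ncam1 (-0.0162 with library totals; -0.0053, without Ctrl replicate 4, to 0.0621 when leaving out 1 library), Ncam2 (0.0055), Dscam (-0.1035) and Alcam (-0.0658), the last 3 with the index. Negr1 ranged from 0.17 to 0.43 and Cntn2 from 0.14 to 0.39 over 22 alternatives. The cause of these shifts was not tested. Counts of at most 45 per library for Cntnap1 and Cntnap3 limit their precision.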
